A study of Mus musculus with 10 samples.

Results

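Replication-dependent histone genes encode the H1, H2A, H2B, H3 and H4 proteins that package newly copied DNA. They were taken as all protein-coding genes of the mouse GENCODE vM21 annotation whose symbol begins with Hist1h, Hist2h, Hist3h or Hist4h, and the transcript of highest mean level stands for each gene. Of 67 such genes 60 had a row among the 27902 genes measured, and the other 7 were not analysed here (Hist1h2aa, Hist1h2ao, Hist1h2ap, Hist1h2ba, Hist1h2bh, Hist1h2bm and Hist1h4m). The 60 comprise 6 H1, 15 H2A, 15 H2B, 12 H3 and 12 H4 genes, with 47 in the Hist1 cluster on chromosome 13, 10 in Hist2 on chromosome 3, 2 in Hist3 on chromosome 11 and Hist4h4 on chromosome 6.

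The RNA came from whole kidneys of wild-type mice, collected on day 14. One group of 5 mice drank quinolinic acid, a tryptophan metabolite of the kynurenine pathway, at 0.5 g/L, and the other 5 received vehicle. The labels give 1 batch for all 10 libraries and do not state the strain, age or sex of the animals. The values come from the authors' deposited table of edgeR's likelihood-ratio test, which gives a mean level in CPM, that is counts scaled to the size of the library, and a log2 fold change per transcript. That mean may also cover libraries beyond these 10. A fold change and test statistic of exactly 0 was listed for 3641 transcripts, at 733 different mean levels up to 0.284 CPM. Levels below are therefore those of the deposited table and may not be of these kidneys alone. No value of a single library was analysed here, so depth per library and spread between mice are unknown. Each error is an approximate 95% interval, derived from the fold change and the test statistic of a row. Such an interval leaves out 0 only where the unadjusted p is under 0.05, and it adds nothing to that p. Since the header of the deposited table names no numerator, every sign below is given as deposited and shows no direction of the response to quinolinic acid.

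Most replication-dependent histone mRNAs are unusual among animal mRNAs because they carry no poly(A) tail. Their 3' end is made by a single cut behind a short stem-loop, which the protein SLBP binds, with the U7 small nuclear ribonucleoprotein guiding the cut. The genes are transcribed mainly in S phase under the coactivator NPAT, and the mRNAs are destroyed when DNA synthesis stops. Some of them also have a longer form that ends at a distal polyadenylation site and that is known from non-dividing, differentiated cells. Variant histones such as H3.3 and H2A.Z are instead made throughout the cell cycle from ordinary polyadenylated mRNAs. The labels name total RNA, and the sources used here do not give whether polyadenylated RNA was selected from it; the part of this step in the levels was not tested.

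The stem-loop is shown because it is the element that the members share and that the selection by symbol did not use. It was searched after the stop codon as 16 bases that begin with GG and end with CC, with 6 paired bases on each side of a loop of 4 bases that is rich in T, on the transcript strand only. It was found in 39 of the 60 representative transcripts, compared with 0.295% of 66743 coding transcripts of the annotation. The forms found are written 5' to 3' with the loop in capitals, and each is named by a gene that carries it.
Hist1h1c: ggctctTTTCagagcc
Hist1h4h: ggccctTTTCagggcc
Hist1h2bk: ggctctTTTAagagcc
Hist1h4j: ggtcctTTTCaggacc
Hist1h4i: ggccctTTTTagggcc
Hist1h4a: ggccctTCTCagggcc
Hist1h3g: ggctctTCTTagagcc
Hist2h2ac: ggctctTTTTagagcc
The form of Hist1h1c was the most frequent, in 20 genes, of which 3 were H1, 8 H2A, 4 H2B and 5 H3 genes and none H4. The form of Hist1h4h was found in 6 genes, all of them H4. The form of Hist1h2bk was found in 6 genes, and the forms of Hist1h4j and Hist1h4i in 2 H4 genes each. The remaining forms occurred in 1 gene each. Of the 21 transcripts without a match, 13 have no annotated 3' untranslated region at all. In Hist1h2bc the representative transcript has 2 exons and no match, while Hist2h2be has a match nowhere in 2192 bases after its stop codon.

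Most of these genes were close to the lowest level that the table holds. The lowest mean level of any transcript in the authors' deposited table was 0.0201 CPM, and 34 of the 60 histone genes (56.7%) lay under 0.03 CPM, a bound chosen after the values were seen. Among the 18313 protein-coding genes 9.39% lay under it. At the other end, 7 histone genes (11.7%) reached 1 CPM, compared with 69.0% of protein-coding genes. The median over the histone genes was 0.0277 CPM, against 6.10 CPM over protein-coding genes. CPM takes no account of length, and the median transcript length was 555.5 nt for the histone genes and 2812 nt for protein-coding genes. Per kilobase of transcript the medians were 0.0525 and 1.80 CPM. Histone RNA was concentrated in few genes, since the 3 highest held 89.2% of the summed level and the 7 of at least 1 CPM held 97.3%.

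The highest member was Hist1h2bc, an H2B gene (chromosome 13, 23684199 to 23692908, plus strand, GRCm38), at 54.0 CPM, a level above 94.8% of all genes. Hist1h1c, which encodes the linker histone H1.2 (chromosome 13, 23738808 to 23740367, plus strand), followed at 42.2 CPM. Hist3h2a, an H2A gene (chromosome 11, 58954685 to 58956830, plus strand), stood at 13.2 CPM. The level of Hist3h2a was above 77.6% of all genes. Hist2h2be, a second H2B gene (chromosome 3, 96221119 to 96223738, plus strand), was measured at 3.92 CPM. The H3 genes Hist2h3c1 (chromosome 3, 96246685 to 96248504, plus strand) and Hist2h3c2 (chromosome 3, 96238108 to 96239127, minus strand) reached 3.40 and 1.11 CPM. Hist1h4i, an H4 gene (chromosome 13, 22040636 to 22041362, minus strand), stood at 1.61 CPM. Every class therefore had at least 1 member of 1 CPM or more, and no class had more than 2.

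Per kilobase of transcript, which allows genes of unequal length to be compared, Hist1h2bc had 46.7 and Hist1h1c 27.1 CPM per kilobase. Hist3h2a had 6.16, Hist1h4i 2.21, Hist2h3c1 1.87, Hist2h2be 1.495, Hist1h4h 1.18 and Hist2h3c2 1.08 CPM per kilobase. The order of Hist1h4i and Hist2h2be is thus reversed once length is taken into account. Lower values were those of Hist3h2ba at 0.468, Hist1h2be at 0.359 and Hist1h4c at 0.133 CPM per kilobase. The next members of the H1, H2A and H3 classes stood far lower, with Hist1h1e at 0.0459, Hist1h1a at 0.0384, Hist1h2af at 0.0702, Hist1h2ai at 0.0562 and Hist1h3i at 0.0525 CPM per kilobase. All of these lie under 0.1 CPM, close to the bottom of the table, and are not ordered here. The median level by class was 0.0331 CPM for H1, 0.0226 for H2A, 0.0323 for H2B, 0.0248 for H3 and 0.0502 for H4.

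**Figure D1:**
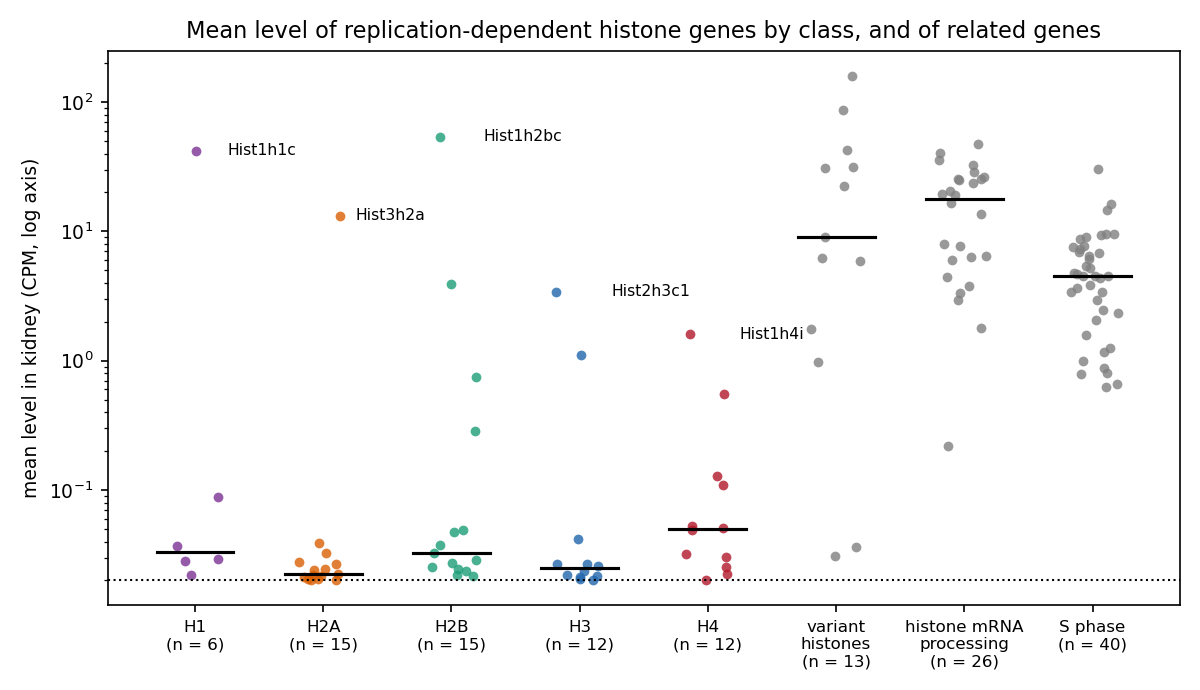
Mean level in CPM on a log axis for each replication-dependent histone gene (coloured, by class) and for genes of 3 related lists (grey); black bars are medians and the dotted line is the lowest level in the table. Each histone class has 1 or 2 genes of at least 1 CPM and most others near the dotted line, while the median of the S phase genes is 4.51 CPM.

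Other genes of the S phase programme were listed at higher mean levels in the same table. Of 40 S phase genes, all were above 0.1 CPM and 34 reached 1 CPM, with a median of 4.51 CPM. Mki67, the proliferation antigen gene, stood at 9.06 CPM, Top2a, the replicative topoisomerase II gene, at 4.66 CPM and Pcna, the sliding clamp of DNA polymerase, at 16.3 CPM. Of 60 histone genes 12 were above 0.1 CPM. Per kilobase of transcript the median was 1.48 CPM for the S phase genes and 0.0525 CPM for the histone genes. Among variant histone genes 10 of 13 reached 1 CPM, led per length by H3f3b, which encodes H3.3, at 63.3 CPM per kilobase (159 CPM) and H1f0, the linker histone of differentiated cells, at 42.2 CPM per kilobase (86.7 CPM). The summed level per length was 91.2 CPM per kilobase over the 60 replication-dependent genes and 187 over the 13 variant genes. In bulk tissue, fewer cells that make a transcript and less of it per cell cannot be told apart.

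Most genes that make and process histone mRNA were measured above 1 CPM. Slbp, the stem-loop binding protein gene, stood at 6.44 CPM, Lsm11, a subunit of the U7 particle, at 2.96 CPM and Npat at 5.97 CPM. Of 26 histone mRNA processing genes 25 reached 1 CPM. The exception, Zfp473, encodes a zinc finger protein of the U7 complex and was measured at 0.217 CPM; it was singled out after its value was seen.

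The annotated 3' end differed between the members with a high and a low level. Of the 39 transcripts with a stem-loop, 18 end within 100 nt of it, and 1 of those 18 reached 0.1 CPM, namely Hist1h4h at 0.555 CPM. Another 5 end 108 to 185 nt behind it, and 1 of them, Hist3h2ba, reached 0.1 CPM. Of the 16 that run on for over 300 nt, 7 reached 0.1 CPM and 5 reached 1 CPM. The extension beyond the stem-loop was 840 nt in Hist1h1c, 1643 nt in Hist3h2a, 1162 nt in Hist2h3c1, 330 nt in Hist1h4i and 377 nt in Hist2h3c2. None of the 13 transcripts annotated without a 3' untranslated region exceeded 0.0290 CPM.

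A long annotated end did not by itself go with a high level. Hist1h1d, an H1 gene with the longest extension (4884 nt), stood at 0.0368 CPM, and Hist1h2ac with 2010 nt at 0.0387 CPM. A polyadenylation signal (AATAAA or ATTAAA) lay in the last 50 nt of 15 transcripts, and 9 of these 15 reached 0.1 CPM, compared with 3 of the 45 without one. Those 3 were Hist1h2bc, Hist2h3c2 and Hist1h4c. Across the 39 genes Spearman's rho between level in CPM and extension was 0.62. With level per kilobase it was -0.14. The extension is part of the length divided by, so long transcripts near the lowest level of the table get low values. The figure of -0.14 therefore cannot decide whether the relation rests on the scale used. A longer transcript can also collect more reads. These points share libraries and sequence and are given as a description.

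**Figure D2:**
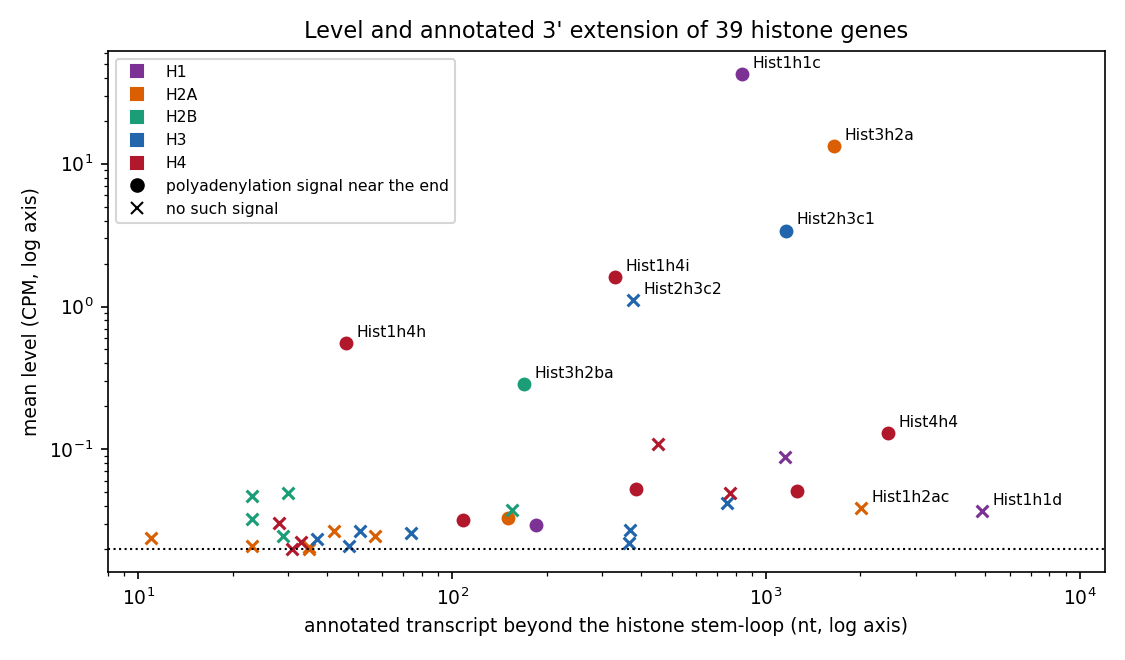
Mean level in CPM against the length of annotated transcript beyond the stem-loop for 39 histone genes, both on log axes, with colours for classes, circles for a polyadenylation signal in the last 50 nt and crosses for none. All genes of at least 1 CPM in the plot lie at 330 nt or more, and several genes with long extensions stay near the dotted line, the lowest level in the table.

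Members resemble each other closely, which limits how reads can be told apart. For each representative transcript the share of its 50-base words found in no transcript of another gene, on either strand, was counted. This share was under 50% in 31 of 60 genes, and 29 of these 31 lay under 0.1 CPM. It was 0 in 7 genes, among them Hist2h2aa1 and Hist2h2aa2, a duplicated pair. Other gene models also cover all 586 nt of Hist2h2aa1 and all 528 nt of Hist2h2aa2 on the opposite strand. Models on the opposite strand likewise cover all of Hist2h2bb (381 nt) and Hist2h3b (488 nt). For these genes a share of 0 thus need not come from likeness between members. The median share was 69.4% for the 7 genes of at least 1 CPM and 40.1% for the 48 genes under 0.1 CPM. Of the 8 genes with a share of at least 90%, 5 were nevertheless under 0.1 CPM, including the H1 genes Hist1h1a (0.0284 CPM, 100% of its words unique) and Hist1h1d (97.7%). The sources used here do not give how reads with several matches were handled, and the part of this step in the low levels was not tested.

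Some values are uncertain for this reason or because genes overlap. Hist2h3c1 has no unique word, since the gene model Gm20634 covers all of its 1820 nt on the same strand. Hist3h2a shares up to 708 nt of exon with Trim17 on the same strand. The representative transcript of Hist1h2be, an H2B gene, has no annotated coding region and shares 450 nt with Hist1h1e on the same strand. In 14 H2A genes another gene model overlaps 138 to 144 nt of exon on the opposite strand, and the sources used here do not give a strand setting for the counts.

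Genes for H2A and H2B often lie side by side and are read away from each other from a shared stretch of DNA. There were 9 such pairs among the members, with 175 to 301 nt between the annotated starts. In 7 pairs both genes were under 0.05 CPM. The other two pairs were lopsided. Hist1h2bc stood at 54.0 CPM and its neighbour Hist1h2ac, whose start is 250 nt away, at 0.0387 CPM. Hist2h2be stood at 3.92 CPM and Hist2h2ac, 238 nt away, at 0.0245 CPM. In both pairs the H2B gene was the higher one. The 50-base words of Hist1h2ac are 85.9% unique, and those of Hist2h2ac 45.0%. The annotated 3' ends differ within these pairs too. Hist1h2ac and Hist2h2ac have a stem-loop and no polyadenylation signal in the last 50 nt. Hist1h2bc and Hist2h2be have no stem-loop match, and of these Hist2h2be has the signal. The part of the ends or of the sequence between the starts in the levels was not tested.

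The sequence between the starts is printed for these 2 pairs because levels differ on either side of it. Each window is the RefSeq promoter of the H2A gene, 250 bases before to 50 after its RefSeq start on GRCm38.p6, 5' to 3' on the minus strand, and it reaches past the annotated start of the H2B gene on the other strand. Capitals mark the TATA box form TATAAA, the box known as CCAAT and the octamer named by its letters ATTTGCAT, each on either strand; none of the marked matches overlap. The Hist1h2ac window is chr13:23683910-23684209 and the Hist2h2ac window chr3:96220831-96221130.
Hist1h2ac: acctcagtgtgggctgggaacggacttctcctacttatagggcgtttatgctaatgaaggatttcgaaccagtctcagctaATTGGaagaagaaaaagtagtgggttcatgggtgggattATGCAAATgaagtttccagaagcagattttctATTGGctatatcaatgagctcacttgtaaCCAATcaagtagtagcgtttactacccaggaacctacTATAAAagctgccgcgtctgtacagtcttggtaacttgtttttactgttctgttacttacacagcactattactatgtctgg
Hist2h2ac: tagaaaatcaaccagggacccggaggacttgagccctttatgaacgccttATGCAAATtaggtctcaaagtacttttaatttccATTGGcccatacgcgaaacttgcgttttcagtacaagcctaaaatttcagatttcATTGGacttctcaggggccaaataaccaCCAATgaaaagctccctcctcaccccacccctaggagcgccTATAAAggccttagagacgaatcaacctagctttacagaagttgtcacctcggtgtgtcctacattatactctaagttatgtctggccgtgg
Each window holds 3 CCAAT matches, 1 octamer and 1 TATA box form. The factor NF-Y is known to bind CCAAT, and the octamer is bound by OCT1, a known activator of H2B genes. A RefSeq promoter was matched for 54 of the 60 members. CCAAT on either strand was found in 85.2% of these 54 and in 37.4% of all 32851 promoter windows of 300 bases. By class it was in all 5 H1, 15 H2A, 13 H2B and 10 H3 promoters matched and in 3 of 11 H4 promoters. The TATA box form was found in 57.4% of members and 13.6% of all windows. The octamer was found in 18.5% of members, in 6 of 15 H2A and 4 of 13 H2B promoters, and in 1.74% of all windows. A shared stretch counts for both genes of a pair, and a match is a run of letters, not a measured binding site.

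**Figure D3:**
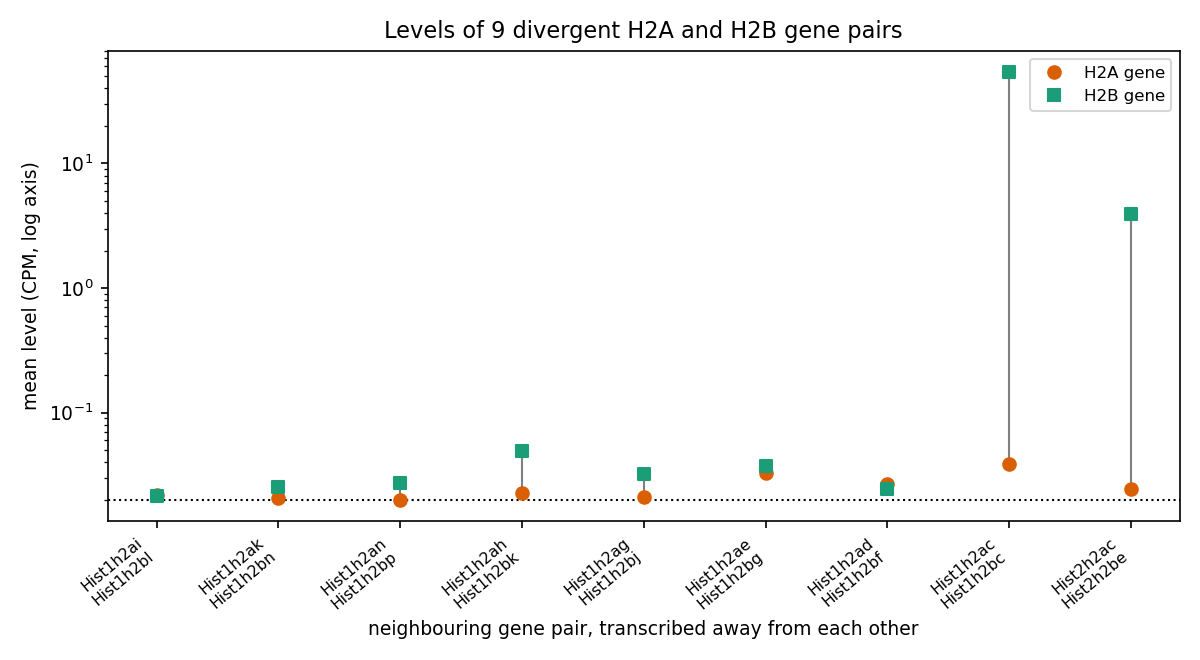
Mean level in CPM on a log axis for the 9 pairs of an H2A gene (circle) and an H2B gene (square) read away from each other; a grey line joins each pair and the dotted line is the lowest level in the table. Both genes of 7 pairs lie under 0.05 CPM, and the H2B gene stands far above its neighbour in the pairs of Hist1h2bc and Hist2h2be.

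The comparison of vehicle with quinolinic acid asks which kidney transcripts differ between the exposed and the control mice. No replication-dependent histone gene differed at an adjusted p under 0.05 in the authors' deposited edgeR likelihood-ratio test. Over all 85107 transcripts 12 (0.0141%) passed, and over 1 transcript per gene 6 of 27902 (0.0215%). At an unadjusted p under 0.05 there were 5 histone genes of 60 (8.33%), compared with 5.11% of all genes. Of these 5 genes 2 were positive and 3 negative, while among all genes 3.58% passed with values above 0 and 1.53% below it. The median log2 fold change of the 60 genes was 0.00, compared with 0.05 over all genes. A positive sign was listed for 22, a negative one for 28, and 10 were listed with a fold change of exactly 0, all 10 under 0.03 CPM. Over all genes 57.9% had a positive sign. That share was lower at lower levels, with 71.8% at 1 CPM or more and 61.3% from 0.1 to 1 CPM. Of the 60 members 48 lay under 0.1 CPM. Of these 48 members 31.25% were positive, compared with 39.5% of all genes under 0.1 CPM, and both medians were 0. Both shares count genes listed at exactly 0, which were 10 of the 48 members and 2391 of the 10644 genes.

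**Figure D4:**
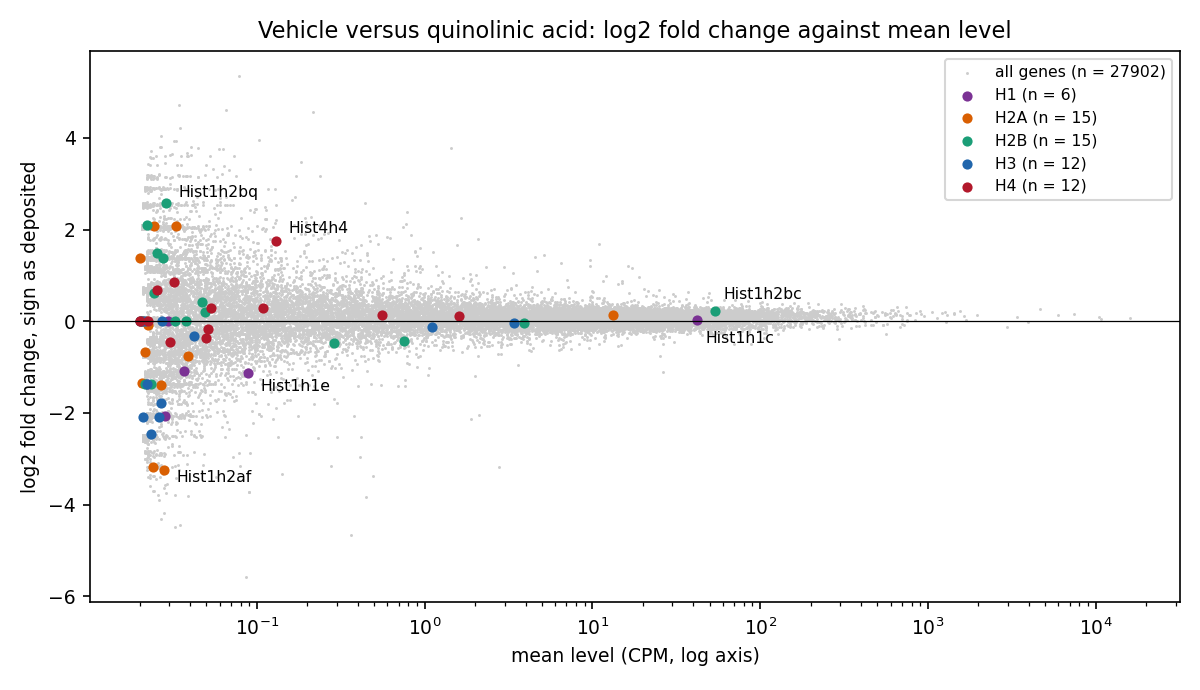
Log2 fold change between vehicle and quinolinic acid, with the sign as deposited, against mean level in CPM on a log axis, for all 27902 genes (grey) and the 60 histone genes (coloured by class). Histone genes of at least 1 CPM lie between -0.13 and 0.22, and those under 0.03 CPM spread from -3.24 to 2.58.

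The members of at least 1 CPM had small fold changes between the groups. In the authors' deposited table Hist1h2bc was listed at a log2 fold change of 0.22 (95% interval -0.11 to 0.55), 1.17-fold apart, and its adjusted p was 0.794 by edgeR's likelihood-ratio test. Hist1h1c stood at 0.04 (-0.25 to 0.32) and Hist3h2a at 0.14 (-0.12 to 0.41) in the authors' deposited table. These 3 intervals leave out differences beyond 0.55 on the log2 scale in either direction. For Hist2h2be the authors' deposited table gave -0.04 (-0.32 to 0.23), for Hist2h3c1 -0.04 (-0.51 to 0.44), for Hist2h3c2 -0.13 (-0.65 to 0.40) and for Hist1h4i 0.12 (-0.35 to 0.58). All 7 intervals include 0. Fold changes over all genes followed transcript length and level, and with that trend removed the log2 fold change was 0.05 for Hist1h2bc, -0.12 for Hist1h1c, 0.03 for Hist3h2a, -0.07 for Hist1h4i and -0.31 for Hist2h3c2. The sign of Hist1h1c and Hist1h4i thus depends on this choice.

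Members from 0.1 to 1 CPM had wider intervals. Hist4h4, the lone gene of its cluster (chromosome 6, 136801553 to 136804415, minus strand), had the smallest p of all members. It encodes histone H4 and was measured at 0.129 CPM, or 0.0452 CPM per kilobase of a 2863 nt transcript. The authors' deposited table listed it at 1.74 on the log2 scale (95% interval 0.73 to 2.75), 3.34-fold apart, with p = 0.000764 and adjusted p = 0.373 by edgeR's likelihood-ratio test. It therefore did not pass over all transcripts, nor with adjustment over 1 transcript per gene (adjusted p = 0.339). Its value without the length and level trend was 1.61. A chi-square test of that value over the approximate standard error of the row, not a new edgeR fit, gave an adjusted p of 0.534. Of its 50-base words 91.9% are unique.

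Hist1h2be was listed at -0.44 (-0.94 to 0.06) and 0.754 CPM in the authors' deposited table, and its coding transcripts at -0.39 and -0.42; it was singled out after its value was seen. Hist3h2ba, an H2B gene, had the most negative value among members from 0.1 CPM up, -0.48 (-1.29 to 0.33) in the authors' deposited table, at a mean of 0.288 CPM. Hist1h4h was listed at 0.13 (-0.61 to 0.86) and Hist1h4c at 0.28 (-0.29 to 0.86) in the authors' deposited table. The 4 intervals include 0. With the trend removed the value of Hist1h4h was -0.06.

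**Figure D5:**
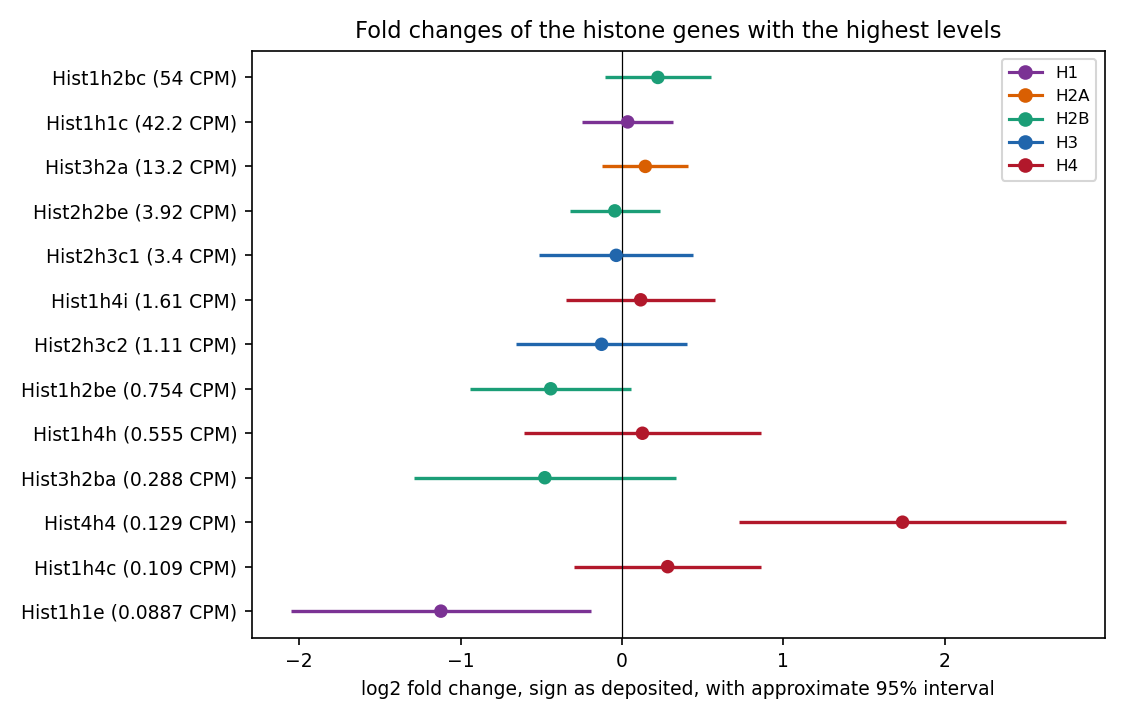
Log2 fold change between vehicle and quinolinic acid, with the sign as deposited (points) and approximate 95% intervals (lines), for the 12 histone genes of at least 0.1 CPM and Hist1h1e, ordered by mean level and coloured by class. The intervals of Hist4h4 (0.73 to 2.75) and Hist1h1e (-2.05 to -0.19) leave out 0, neither gene passed the adjusted threshold, and the other 11 intervals include 0.

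Under 0.1 CPM the table held 48 members, 4 of them (8.33%) at an unadjusted p under 0.05, compared with 5.06% of all genes under 0.1 CPM. Hist1h1e, which encodes the linker histone H1.4, was listed at -1.12 (-2.05 to -0.19) and 0.0887 CPM in the authors' deposited table (p = 0.0183, adjusted p = 0.788, edgeR). The H2A genes Hist1h2af and Hist1h2ab were listed at -3.24 (0.0280 CPM, p = 0.0145) and -3.18 (0.0241 CPM, p = 0.0174) in the authors' deposited table. Hist1h2bq, an H2B gene, stood at 2.58 (0.0290 CPM, p = 0.0123) in the authors' deposited table. The adjusted p of these 3 genes was 0.756, 0.788 and 0.734 in edgeR's likelihood-ratio test. These values lie close to the lowest level of the table, and 6% of the 50-base words of Hist1h2af and 0 of those of Hist1h2bq are unique. Approximate standard errors of the log2 fold change among the 34 genes under 0.03 CPM had a median of 1.26 over the 24 not listed at exactly 0.

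By class, 10 of 15 H2B genes and 7 of 12 H4 genes had a positive sign, with median log2 fold changes of 0.21 and 0.12. The sign was negative in 5 of 6 H1 genes, with a median of -1.10, and in 8 of 12 H3 genes, with a median of -0.23 and the other 4 at exactly 0. Of the 15 H2A genes 4 were positive, 7 negative and 4 at exactly 0, with a median of 0.00. Among genes of at least 0.1 CPM the median turned positive for H1 (0.04, 1 gene) and negative for H2B (-0.24, 4 genes), and these class values rest on genes near the bottom of the table, since only 1 H1, 1 H2A, 4 H2B, 2 H3 and 4 H4 genes exceeded 0.1 CPM. After removal of the trend on length and level the class medians were 0.0503 for H2B, 0.00282 for H4, -0.36 for H3 and -1.26 for H1. Among the H3 and H4 genes of at least 0.1 CPM they were -0.0808 and 0.21. No difference between classes was tested.

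Related genes did not pass the test either. Variant histone genes had a median log2 fold change of 0.11, with 11 of 13 positive and none called, and 1 at an unadjusted p under 0.05. Removal of the trend turned this median to -0.00332. The gene under 0.05 was H2afv, which encodes an H2A.Z isoform, at 0.30 (0.01 to 0.59, p = 0.0427, adjusted p = 0.794) in the authors' deposited table. Next by p came Cenpa, the centromeric H3 variant, at 0.50 (-0.03 to 1.04), H2afj at 0.30 (-0.07 to 0.67) and the macroH2A gene H2afy at 0.17 (-0.06 to 0.41) in the authors' deposited table. H2afz, H3f3a, H1f0, H3f3b and H2afx were listed at 0.23, 0.16, 0.11, 0.10 and 0.11 in the authors' deposited table, and each interval included 0.

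Of 26 histone mRNA processing genes 16 were positive, with a median of 0.02 and none called or at an unadjusted p under 0.05. This median turned negative, -0.0570, when the trend was removed. Slbp had a log2 fold change of 0.12 (-0.12 to 0.37), Npat of 0.01 (-0.23 to 0.25) and Lsm11 of -0.01 (-0.32 to 0.31) in the authors' deposited table. Smallest in p were the Sm protein genes Snrpg (0.31) and Snrpb (0.20), Casp8ap2, which encodes the processing factor FLASH (-0.22), and the uridylyltransferase gene Tut7 (-0.11) in the authors' deposited table. Histone chaperone genes, which carry histones to DNA, had a median of 0.09 with 20 of 24 positive and none called, and without the trend the median was 0.00466. They were led by Hat1 (0.20), the acetyltransferase of new H4, Mcm2 (0.22), Atrx (-0.18) and Daxx (0.13) in the authors' deposited table, none at an unadjusted p under 0.05.

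S phase genes had a median of 0.16, with 35 of 40 positive, none called and 1 at an unadjusted p under 0.05. The median was 0.0443 once the trend was removed. The gene under 0.05 was Cdc45, a part of the replicative helicase, at 0.36 (0.02 to 0.70, p = 0.0402, adjusted p = 0.794) in the authors' deposited table. Uhrf1 stood at 0.51 (-0.02 to 1.04), Mcm3 at 0.38 (-0.02 to 0.78) and Pcna at 0.19 (-0.03 to 0.42) in the authors' deposited table. Mki67 and Top2a were listed with negative values, -0.17 (-0.68 to 0.34) and -0.14 (-0.62 to 0.34), in the authors' deposited table. The list also holds Slbp and Mcm2. Among all genes of at least 1 CPM the sign was positive in 71.8% and the median 0.08, which is the level these counts are to be read against.

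The tissue label was checked against markers. All 10 kidney markers were measured at 6.10 to 1430 CPM, and the sperm protamine and transition protein genes Prm1, Prm2 and Tnp2 were under 0.03 CPM with a fold change listed at exactly 0. Lymphocyte markers stood at 0.171 to 2.12 CPM, with none of 6 at an unadjusted p under 0.05. The 3 fat and 3 liver markers all had a positive sign and an unadjusted p under 0.05, with medians of 4.55 and 1.27 on the log2 scale, and none passed the adjusted threshold of edgeR's likelihood-ratio test. Their part in the histone values was not tested.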

How the data were processed

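Kidney RNA was sequenced from 5 vehicle mice and 5 mice on quinolinic acid (0.5 g/L, 14 days). The authors used STAR 2.5.3a, featureCounts (Subread 1.4.6), edgeR and FastQC 0.11.2 with mm10, per the submitters' processing notes. The sources used here do not give the library preparation, strand setting, filters, depth or handling of reads with several matches.

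Per the file headers, the authors deposited for each of 85107 transcripts a mean log2 CPM, a log2 fold change, a likelihood-ratio score, a p-value and an adjusted p-value. Recomputing showed that the deposited adjusted p-value is Benjamini-Hochberg's over all transcripts. A call was a deposited adjusted p under 0.05. The header does not name the numerator, so signs are as deposited. A log2 fold change and score of exactly 0 was deposited for 3641 transcripts, at 733 different mean levels from 0.0201 to 0.284 CPM. The sources used here do not give whether the authors' fit held libraries beyond these 10, and the mean CPM could then cover them too.

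Transcripts were matched by identifier to GENCODE vM21 on GRCm38, which mm10 also denotes, and 83446 of them (98.0%) matched. The transcript of highest mean CPM stood for each gene. An approximate standard error, the size of the fold change over the root of the score, gave the 95% intervals. CPM per kilobase used the exonic length. A loess fit (span 0.5, R 4.3.3) over all genes removed the trend of fold change on length and level. It was tested on simulated data, as was calling by adjusted p among genes of at least 1 CPM. After removal of the trend no model was refitted. The remaining fold change over the approximate standard error was squared and given a chi-square p, adjusted over 1 transcript per gene. Sequences came from vM21 transcripts and RefSeq promoters (GRCm38.p6), read with Python 3.11.15, numpy 2.4.6, pandas 2.3.3 and scipy 1.17.1. Figures used matplotlib 3.10.9.

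The members and gene lists were chosen with earlier results of these data known. Named were the 3 members of each class with the highest CPM per kilobase, those with an unadjusted p under 0.05, the extremes of fold change from 0.1 CPM up, and in each other list up to 4 genes with the smallest p plus fixed ones. Alternatives were other thresholds, transcripts, level filters, gene subsets and the removal of the trend.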

Additional observations from a re-analysis of the deposited data

How the results depend on the processing

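No histone gene was called with an adjusted p under 0.1, the transcript of smallest p, coding transcripts only, adjustment over 1 transcript per gene or over well-measured genes, or after removal of the trend. At an unadjusted p under 0.05 the count was 5. The median log2 fold change of 0.00 became -0.0631 with the trend removed, 0.0759 among genes of at least 0.1 CPM, -0.0618 without the members listed at exactly 0 (an alternative chosen after seeing the data) and -0.21 as a mean. The 22 positive signs became 4 among 7 genes of at least 1 CPM, 7 among 12 of at least 0.1 CPM and 13 without genes under 50% unique words (also chosen after seeing the data), where fewer genes enter. Among genes of at least 0.1 CPM the class medians were 0.0357 for H1 (1 gene), 0.14 for H2A (1 gene) and -0.24 for H2B. With the trend removed they were -1.26 for H1 and 0.0503 for H2B, and the list medians were -0.00332 for variant histones, -0.0570 for histone mRNA processing, 0.00466 for chaperones and 0.0443 for S phase. Restricted to 1 CPM and more, the variant histones had a median of 0.17. The other 33 values moved by less than 1.5 times for a count, and for a median by less than the standard error of the list's weighted mean. Within that bound the median of H3 went from -0.23 to -0.0808 at 0.1 CPM and more and to -0.36 without the trend, and that of H4 from 0.12 to 0.21 and 0.00282. Without depths per library, the interval of each gene is the only measure of precision, and it is a rough one at low levels. The approximate standard error was 0.438 for Hist1h2bg at 0.0377 CPM and 2.75 for Hist1h2bj at 0.0323 CPM. Leaving out single mice was not run, since no value per library was used. No paired analysis was possible because the values are a finished comparison without a column per library.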
